A study of Mus musculus with 6 samples.

Results

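The 7 genes described here encode proteins that mark the granulocyte branch of blood formation: Mpo, Elane, Prtn3, Ctsg, Ms4a3, Plac8 and Gstm1. They were taken by name from a table of 49671 mouse genes, and all 7 passed the filter on low counts, among 14637 genes tested over all libraries and 14193 tested over replicates 3 and 4. The libraries come from bone marrow of BALB/c mice. Stem and progenitor cells enriched from that marrow received a retrovirus, and the GFP-positive LSK cells (without lineage markers, with Sca-1 and Kit on their surface) were sorted and pooled across animals. In the shCxxc5 group the virus carried a hairpin against Cxxc5, a CXXC-type zinc finger protein known to bind CpG DNA that is free of methylation. In the shCtrl group it carried a non-targeting hairpin. Each group has 3 libraries, numbered 2, 3 and 4. The hairpin lowers Cxxc5 RNA without removing the gene, the pooling hides differences between animals, and the labels do not say what the replicate numbers stand for, so the p-values below rest on library-to-library spread, which could be purely technical.

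Primary (azurophil) granules are the first granules that a developing neutrophil makes. Their contents, myeloperoxidase and a group of serine proteases, are transcribed most strongly in granulocyte-monocyte progenitors and promyelocytes and are switched off as the cell matures, while the proteins persist in the granules. The most primitive LSK cells carry little of these transcripts, and their multipotent progenitors with myeloid bias carry more. The transcription factors C/EBPα, PU.1, MYB and RUNX1 are known to drive these genes.

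Total counts ran between 16558791 and 27754019 in shCxxc5 libraries and between 15002414 and 23285446 in shCtrl libraries. Cxxc5 stood at 6.73, 17.4 and 17.9 CPM in shCxxc5 replicates 2, 3 and 4, against 82.0, 59.8 and 57.8 CPM in shCtrl replicates 2, 3 and 4 (CPM, each count relative to its library total after TMM scaling, edgeR's correction for library composition). All shCxxc5 libraries lay below all shCtrl libraries for the targeted gene. Replicate 2 stood apart from replicates 3 and 4 in both groups: the first principal component, with 67.6% of the variance, separated it. Ly6a is the gene of Sca-1, and it had 33.1 CPM in shCxxc5 replicate 2 and 46.3 CPM in shCtrl replicate 2, against 703 and 710 CPM in the other shCxxc5 libraries and 804 and 785 CPM in the other shCtrl libraries. The marker of the sort was thus low in both replicate 2 libraries, while Kit, the other sort marker, lay between 82.2 and 110 CPM in all 6. Results are therefore given for each replicate number, and with and without replicate 2.

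Mpo, Elane, Prtn3 and Ctsg encode the primary granule proteins among the 7, and the DNA before their start sites is shown first. The stretches are from RefSeq (GRCm38.p6), 5′ to 3′ on the gene's strand, and end just before the RefSeq start or, for Mpo, Elane and Prtn3, just before the start of the GENCODE M21 exon that lies before it. The stretch for Mpo is chr11:87793534-87793580 on the plus strand, that for Elane chr10:79886062-79886246 on the plus strand, that for Prtn3 chr10:79879417-79879613 on the plus strand, and that for Ctsg chr14:56102575-56102824 on the minus strand. The Prtn3 stretch lies before the RefSeq start but inside the GENCODE M21 gene, which begins at chr10:79874476. Capitals mark GAGGAA, the core letters that PU.1 binds, and, in Ctsg alone, ACCACA, the reverse complement of the RUNX letters TGTGGT.
Mpo: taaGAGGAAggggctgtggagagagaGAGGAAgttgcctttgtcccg
Elane: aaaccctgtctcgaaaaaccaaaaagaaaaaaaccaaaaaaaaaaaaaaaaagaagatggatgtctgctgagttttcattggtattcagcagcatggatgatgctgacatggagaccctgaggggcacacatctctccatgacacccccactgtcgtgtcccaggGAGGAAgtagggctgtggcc
Prtn3: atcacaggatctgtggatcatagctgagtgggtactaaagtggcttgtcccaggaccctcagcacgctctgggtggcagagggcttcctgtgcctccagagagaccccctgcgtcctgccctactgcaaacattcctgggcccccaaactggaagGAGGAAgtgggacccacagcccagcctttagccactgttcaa
Ctsg: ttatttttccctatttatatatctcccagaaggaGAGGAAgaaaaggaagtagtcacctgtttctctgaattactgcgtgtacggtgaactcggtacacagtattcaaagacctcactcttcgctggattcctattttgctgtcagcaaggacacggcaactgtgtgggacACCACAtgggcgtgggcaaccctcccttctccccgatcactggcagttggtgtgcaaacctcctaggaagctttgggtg

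Each of the 4 stretches holds GAGGAA, and that of Mpo holds it at 2 places. Letters for 4 factors were searched on both strands of the RefSeq windows, which run from 250 bases before to 50 bases after a start: TTGCAA for C/EBP, GAGGAA for PU.1, TAACNG for MYB and TGTGGT for RUNX. No searched letters overlapped in the stretches shown. The 7 genes have 9 such windows, since Plac8 and Gstm1 have more than one start. GAGGAA stood in 6 of the 9 windows, which belong to 6 of the 7 genes (all but Gstm1), against 28.3% of all 32851 windows in the table. A pair or more of GAGGAA stood in the windows of Mpo and Plac8, against 4.82% of all windows. TAACNG stood in the windows of Mpo and Elane (23.3% of all windows), and TGTGGT in those of Ctsg, Plac8 and Gstm1 (16.8%). TTGCAA stood in none of the 9, against 6.23% of all windows. Only that exact string was searched for C/EBP, so its absence does not show that C/EBP sites are absent. Counted from the RefSeq start, GAGGAA began at base -247 and base -224 of Mpo, base -85 of Elane, base -95 of Prtn3 and base -216 of Ctsg. A match of letters is a description of the sequence and not a measured binding site.

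Mpo encodes myeloperoxidase, the enzyme that makes hypochlorous acid in the phagosome (ENSMUSG00000009350, chr11:87793581-87804413, plus strand, GRCm38). It stood at 2910, 391 and 386 CPM in shCxxc5 replicates 2, 3 and 4, against 360, 346 and 351 CPM in shCtrl replicates 2, 3 and 4. One library, shCxxc5 replicate 2, was high and the other 5 lay close together, and the groups did not overlap. In shCxxc5 replicate 2 Mpo ranked 10th of all genes by CPM, whereas in the other libraries it ranked between 342nd and 395th. Mpo alone took 0.302% of all counts in that library. In bulk RNA, more cells of a type and more RNA per cell cannot be told apart, here and for every value below. Mpo shares 512 exon bases with Gm11505 on the opposite strand, to which 12 counts or fewer were assigned in every library.

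The serine proteases of the granule did not share one profile. Elane, neutrophil elastase (ENSMUSG00000020125, chr10:79886247-79888215, plus strand), had 385, 17.1 and 17.9 CPM in shCxxc5 libraries, against 57.8, 17.4 and 17.6 CPM in shCtrl libraries (replicates 2, 3 and 4 in each). Both replicate 2 libraries were high, the shCxxc5 one most, and the remaining 4 libraries were level. Prtn3, proteinase 3 (ENSMUSG00000057729, chr10:79874476-79883174, plus strand), is the gene next to Elane, with 3072 bases between them. It had 894, 483 and 490 CPM in shCxxc5 libraries, against 145, 333 and 343 CPM in shCtrl libraries. Every shCxxc5 library exceeded every shCtrl library, and shCtrl replicate 2 was the lowest. Prtn3 shares 159 exon bases with Plppr3 on the opposite strand, which had 145, 256 and 270 CPM in shCxxc5 libraries and 103, 195 and 214 CPM in shCtrl libraries. Whether reads were counted by strand is not stated in the sources used here, so reads from the shared bases may be split between these genes.

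Ctsg, cathepsin G (ENSMUSG00000040314, chr14:56099881-56102574, minus strand), had 1032, 114 and 111 CPM in shCxxc5 libraries, against 86.3, 115 and 130 CPM in shCtrl libraries. It was high in shCxxc5 replicate 2 only, and the groups overlapped. Its nearest neighbours, at 14607 and 15051 bases, are the proteases Mcpt8 and Gzme of basophils and cytotoxic lymphocytes.

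Ms4a3 encodes a membrane protein of granulocyte-monocyte progenitors whose locus is used in mice to trace that lineage (ENSMUSG00000024681, chr19:11629496-11640851, minus strand). It had 428, 79.2 and 81.8 CPM in shCxxc5 libraries, against 44.4, 63.9 and 70.3 CPM in shCtrl libraries. The groups did not overlap, with shCxxc5 replicate 2 the highest and shCtrl replicate 2 the lowest. Plac8, a small cysteine-rich protein of myeloid cells (ENSMUSG00000029322, chr5:100553725-100572245, minus strand), had 823, 2615 and 2720.5 CPM in shCxxc5 libraries, against 247, 2223 and 2211 CPM in shCtrl libraries. It was the only one of the 7 that was low in both replicate 2 libraries relative to the other libraries of their group. Gstm1 encodes a glutathione S-transferase of the mu class, which joins glutathione to reactive compounds (ENSMUSG00000058135, chr3:108012255-108017973, minus strand). It had 63.0, 31.5 and 30.0 CPM in shCxxc5 libraries, against 26.2, 40.2 and 35.2 CPM in shCtrl libraries. The groups overlapped, and in replicates 3 and 4 the shCxxc5 libraries were the lower ones. Gstm1 lies beside its paralogs Gstm2 and Gstm4, so its counts are uncertain to the extent that reads match more than one of them.

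**Figure D1:**
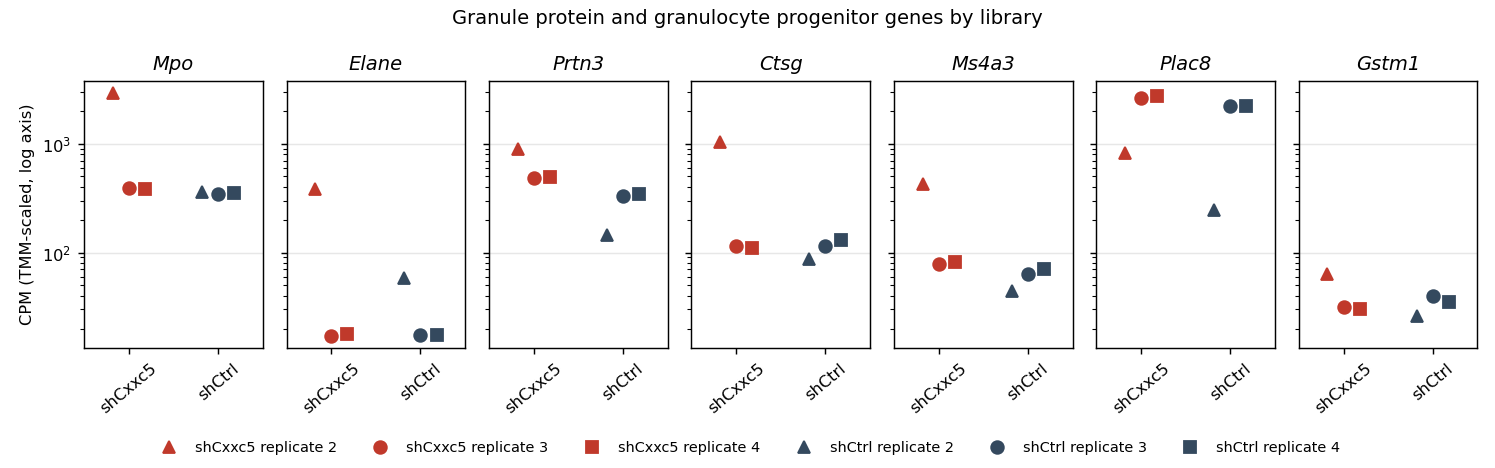
CPM of each of the 7 genes (log axis) in the 3 shCxxc5 and the 3 shCtrl libraries, 1 point per library, with symbol shape for the replicate number. The shCxxc5 replicate 2 library is the highest for every gene except Plac8, for which both replicate 2 libraries, at 823 and 247 CPM, lie below the rest.

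Per length, the balance among the granule genes also differed between replicate numbers. Per kilobase of exon, Ctsg led in shCxxc5 replicate 2 with 999 CPM per kb, followed by Mpo with 850, Plac8 with 517, Prtn3 with 516, Elane with 391, Ms4a3 with 227 and Gstm1 with 42.8. In the other 5 libraries Plac8 led. Its level was 1642 and 1709 CPM per kb in shCxxc5 replicates 3 and 4, against 155, 1396 and 1389 CPM per kb in shCtrl replicates 2, 3 and 4. Prtn3 came next in all replicate 3 and 4 libraries, and Elane was the lowest of the 7 there, at 17.4 and 18.2 CPM per kb in shCxxc5 and 17.7 and 17.9 CPM per kb in shCtrl. Mpo and Ctsg were close neighbours in this order, at 114 and 110 CPM per kb in shCxxc5 replicate 3 and 101 and 111 CPM per kb in shCtrl replicate 3. The per-length ratio of Elane to Prtn3 was 0.757, 0.0623 and 0.0645 in shCxxc5 libraries, against 0.700, 0.0917 and 0.0904 in shCtrl libraries. That ratio was close between both replicate 2 libraries, although Elane and Prtn3 themselves were each more than 6-fold apart there. The per-length ratio of Mpo to Prtn3 was 1.65, 0.409 and 0.399 in shCxxc5 libraries, against 1.25, 0.525 and 0.518 in shCtrl libraries.

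**Figure D2:**
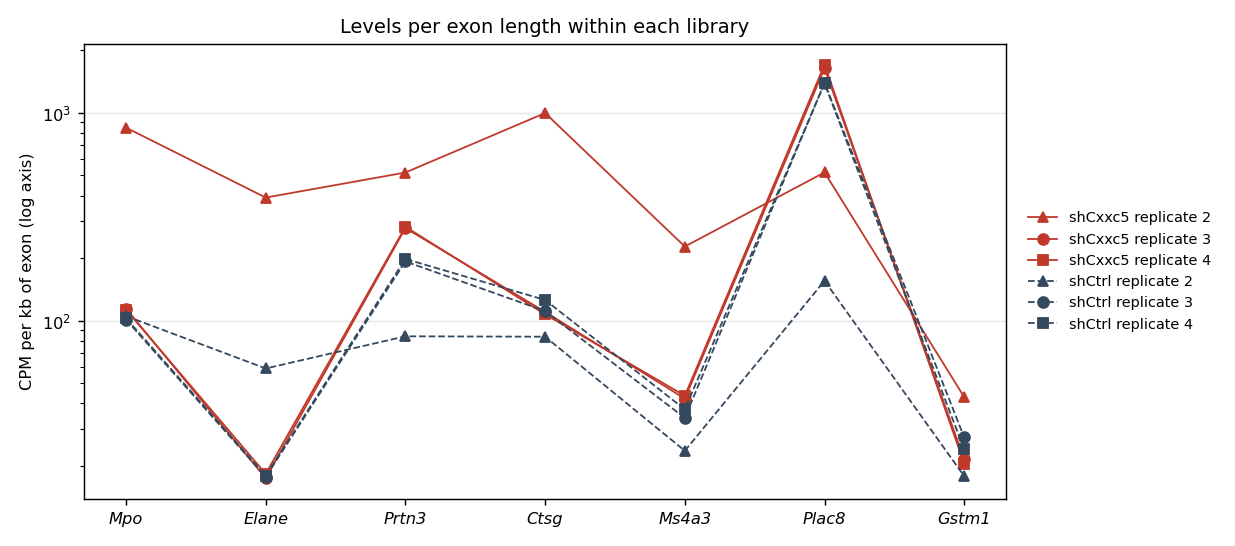
CPM per kilobase of exon (log axis) for the 7 genes, 1 line per library; the lines only join points of the same library. Both replicate 2 libraries run apart from the other 4, with Elane at 391 CPM per kb in shCxxc5 and 58.7 CPM per kb in shCtrl and Plac8 at 517 and 155 CPM per kb.

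The first comparison asks whether the hairpin against Cxxc5 went with a change in these transcripts over all 6 libraries. Means were higher in shCxxc5 for all 7, but none passed the test. Mpo averaged 1229 ± 1455 CPM in shCxxc5 libraries and 352 ± 6.92 CPM in shCtrl libraries, and Prtn3 averaged 623 ± 235 CPM in shCxxc5 and 274 ± 111 CPM in shCtrl (SD, n = 3 each). The spread of Mpo among shCxxc5 libraries exceeded its mean. With edgeR's quasi-likelihood test, 0 of the 7 passed an adjusted p of 0.05, beside 0% of the 14637 genes tested, of which 575 had an unadjusted p under 0.05. DESeq2 gave no p for Elane and Ctsg and called 0 of the other 5, beside 0.130% of all genes (19), and limma-voom called 0 genes. Cxxc5 itself had a log2 fold change of -2.25 (SE 0.40; adjusted p = 0.940 with edgeR, 4.22e-05 with DESeq2). The log2 fold changes of the 7 had a median of 1.72, against -0.02 over all genes tested. Elane had the largest, 2.18 (SE 1.34; unadjusted p = 0.154, edgeR), and Prtn3 the smallest unadjusted p, 0.0255, at a log2 fold change of 1.19 (SE 0.40; adjusted p = 0.940). For Mpo, Prtn3 and Ms4a3 every shCxxc5 library exceeded every shCtrl library, a pattern that 6.70% of all genes tested had. Without shCxxc5 replicate 2 the log2 fold change was 0.14 for Mpo, which was then the median of the 7, and 0.03 for Ctsg, 0.44 for Ms4a3, 0.83 for Prtn3, 0.77 for Plac8, -0.14 for Gstm1 and -0.82 for Elane. Without shCtrl replicate 2 it was -0.11 for Plac8 and 0.14 for Gstm1. The directions of Elane and Gstm1 over all libraries thus rest on shCxxc5 replicate 2. Plac8 turned only when shCtrl replicate 2 was left out and the low shCxxc5 replicate 2 stayed without its partner. With a replicate block Plac8 had 0.74, and its ratio of shCxxc5 over shCtrl was above 0 within each replicate number.

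Within replicate number 2, the ratio of shCxxc5 over shCtrl was large for every one of the 7. Ctsg was 12.0-fold, Ms4a3 9.64-fold, Mpo 8.09-fold, Elane 6.66-fold, Prtn3 6.15-fold, Plac8 3.33-fold and Gstm1 2.41-fold as high in shCxxc5 as in shCtrl. Ranked by this ratio among 14637 genes, Ctsg was 14th, Ms4a3 22nd, Mpo 34th, Elane 55th, Prtn3 69th, Plac8 239th and Gstm1 477th. With 1 library in each group here, there is no replicate check of these ratios. Counting error was small beside them: the 95% interval of the log2 ratio was 3.52 to 3.65 for Ctsg (at 3.58) and 1.13 to 1.40 for Gstm1 (at 1.27). These intervals come from an exact binomial method and cover counting error only, and the reads carry no molecular identifiers.

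Within replicate numbers 3 and 4 the log2 ratios were smaller, between -0.35 and 0.54. For Prtn3 the log2 ratio was 0.54 in replicate 3 and 0.52 in replicate 4, the largest of the 7 in both. Mpo had 0.18 and 0.14, Ms4a3 0.31 and 0.22, and Plac8 0.23 and 0.30. Gstm1 was lower in shCxxc5 in both pairs, at -0.35 and -0.23. Elane had -0.02 (95% counting interval -0.23 to 0.18) and 0.03 (-0.22 to 0.27), so no difference was detectable at its depth of 262 to 390 counts a library. Ctsg had -0.01 (-0.09 to 0.07) in replicate 3 and -0.23 (-0.32 to -0.14) in replicate 4.

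**Figure D3:**
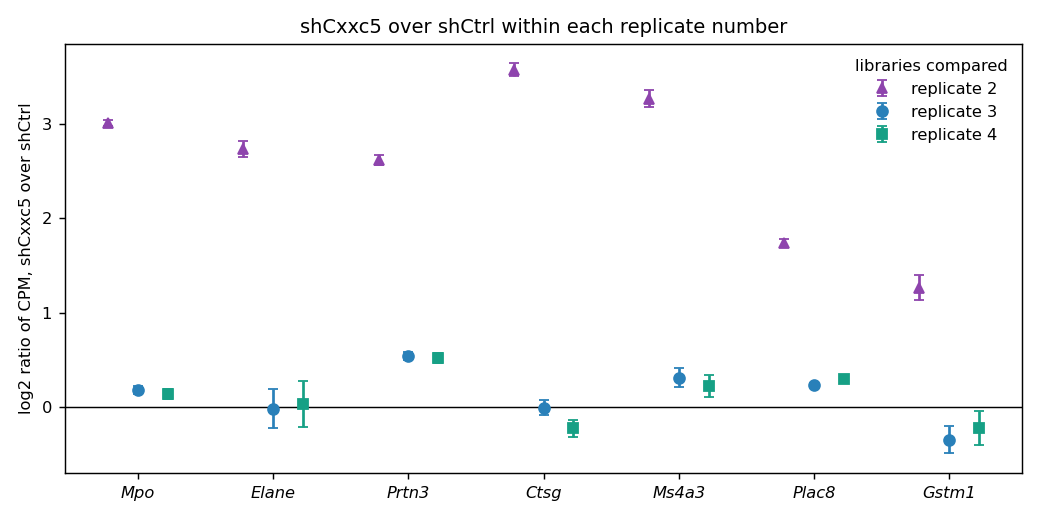
Log2 ratio of CPM, shCxxc5 over shCtrl, for each of the 7 genes within replicate numbers 2, 3 and 4; bars are 95% intervals for counting error. Replicate 2 lies between 1.27 and 3.58 for all 7, and replicates 3 and 4 lie between -0.35 and 0.54.

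Over replicates 3 and 4 alone, with 2 libraries in each group, Prtn3, Mpo, Ms4a3 and Plac8 were higher and Gstm1 lower in shCxxc5. The counts are 4 of 7 higher and 1 of 7 lower by edgeR's test, beside 20.0% of the 14193 genes tested (1555 higher and 1278 lower). DESeq2 called the same 4 as higher and none as lower, beside 9.53% of all genes. Prtn3 had a log2 fold change of 0.53 (SE 0.03; adjusted p = 1.78e-12), Plac8 0.27 (SE 0.03; adjusted p = 1.15e-07), Ms4a3 0.27 (SE 0.05; adjusted p = 0.000610) and Mpo 0.16 (SE 0.03; adjusted p = 0.000883). Gstm1 had -0.30 (SE 0.08; adjusted p = 0.00599). Elane stood at 0.01 (SE 0.10; adjusted p = 0.979) and Ctsg at -0.11 (SE 0.05; adjusted p = 0.125), all from edgeR. The median of the 7 was 0.16, against -0.00 over all genes tested. The spread between libraries beyond counting error, as edgeR's common coefficient of variation, was 0.029 here and 0.312 over all 6 libraries. These p-values rest on that small spread, estimated from 2 libraries in each group. The call for Gstm1 was lost with DESeq2 (adjusted p = 0.0709), without shCxxc5 replicate 4 (edgeR, adjusted p = 0.0595) and without shCtrl replicate 3 (edgeR, adjusted p = 0.188), and that for Ms4a3 without shCtrl replicate 3 (edgeR, adjusted p = 0.0659). Ctsg passed as lower without shCtrl replicate 3 (log2 fold change -0.21; edgeR, adjusted p = 0.0202) and with library totals in place of TMM (edgeR, adjusted p = 0.0499). Cxxc5 had a log2 fold change of -1.74 (SE 0.07; edgeR, adjusted p = 1.45e-16) and Ly6a one of -0.16 (edgeR, adjusted p = 0.000327), while Kit stood at 0.04 (edgeR, adjusted p = 0.619). Plppr3, the antisense partner of Prtn3, had 0.37 (SE 0.04; edgeR, adjusted p = 1.88e-07), and its part in the result for Prtn3 was not tested.

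The effect in replicate 2 was then set against that in replicates 3 and 4 by the interaction of group and replicate number. All 7 differed, each with a higher ratio of shCxxc5 over shCtrl in replicate 2, beside 35.8% of genes called in either direction and 16.8% called in that one. The difference of log2 ratios was 3.69 for Ctsg (edgeR, adjusted p = 5.51e-32), 3.00 for Ms4a3 (adjusted p = 3.53e-29), 2.86 for Mpo (adjusted p = 4.13e-34), 2.73 for Elane (adjusted p = 4.01e-24) and 2.10 for Prtn3 (adjusted p = 1.98e-28). It was 1.57 for Gstm1 (edgeR, adjusted p = 4.70e-14) and 1.47 for Plac8 (edgeR, adjusted p = 5.71e-24). The median of the 7 was 2.73, against -0.03 over all genes tested. Cxxc5 itself had a difference of -1.87, so its RNA was lowered further in replicate 2 than in replicates 3 and 4. Only replicates 3 and 4 give this test its 2 residual degrees of freedom, so its p-values take the spread between those libraries as the spread that replicate 2 would have.

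Replicate 2 against replicates 3 and 4 differed between the groups in direction for 4 of the 7. In shCxxc5, replicate 2 over the mean of replicates 3 and 4 had a log2 ratio of 4.46 for Elane, 3.20 for Ctsg, 2.90 for Mpo, 2.41 for Ms4a3, 1.03 for Gstm1, 0.88 for Prtn3 and -1.70 for Plac8. In shCtrl the same ratio was 1.72 for Elane, 0.05 for Mpo, -0.50 for Ctsg, -0.53 for Gstm1, -0.60 for Ms4a3, -1.22 for Prtn3 and -3.16 for Plac8. Elane was high and Plac8 low in replicate 2 of both groups, while Ctsg, Ms4a3, Gstm1 and Prtn3 were on opposite sides. Fitted within shCxxc5 by edgeR, 6 of the 7 were higher and Plac8 lower, beside 48.9% of genes called (22.7% higher and 26.3% lower). Within shCtrl, 1 was higher (Elane) and 5 were lower, beside 59.4% of genes called (29.0% higher and 30.4% lower), and Mpo did not pass (adjusted p = 0.387). Each of these fits left out only replicate 2 of the other group and kept the group as a term. All 5 libraries kept set the filter, scaling and spread. The replicate 2 ratio itself sets 1 library against 2, and the lone library is assumed to vary like the others.

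**Figure D4:**
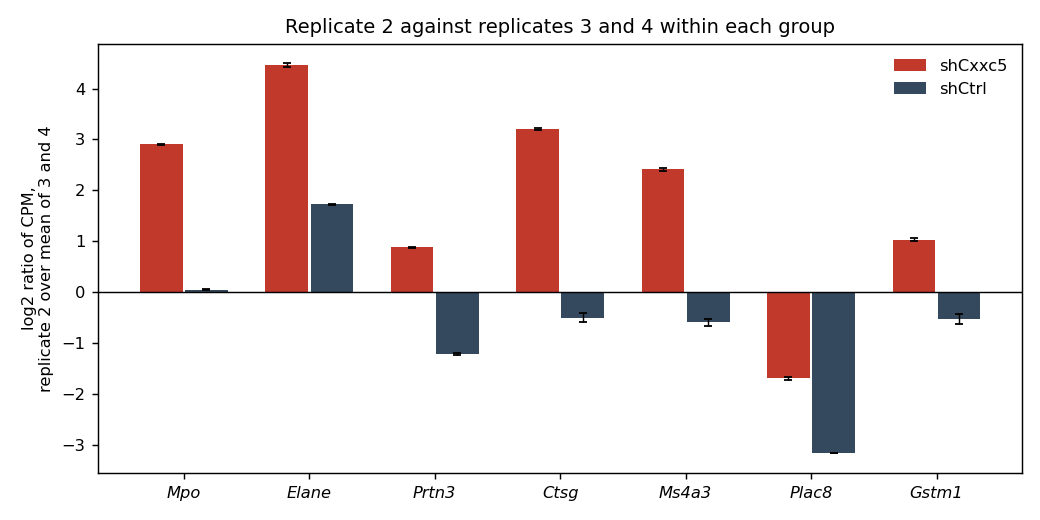
Log2 ratio of CPM of replicate 2 over the mean of replicates 3 and 4 for each of the 7 genes, within shCxxc5 and within shCtrl; error bars run between the ratios to replicate 3 alone and to replicate 4 alone. Elane lies above 0 in both groups (4.46 and 1.72) and Plac8 below 0 in both (-1.70 and -3.16).

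With both groups in 1 fit and the group as a term, replicate 2 over replicates 3 and 4 had Elane higher and Plac8 lower. The log2 fold change was 3.30 for Elane (SE 0.56; edgeR, adjusted p = 0.00704) and -2.36 for Plac8 (SE 0.34; edgeR, adjusted p = 0.00395), 2 of the 7 beside 36.4% of all genes tested. With no filter on low counts neither passed (edgeR, adjusted p = 0.0858 for Elane and 0.0568 for Plac8). Mpo had 1.72 (edgeR, adjusted p = 0.0688), Ctsg 1.78 (adjusted p = 0.136), Ms4a3 1.20 (adjusted p = 0.185), Gstm1 0.33 (adjusted p = 0.465) and Prtn3 -0.03 (adjusted p = 0.961). Leaving out the replicate 2 library of 1 group gives the fits described above within each group, so it is no separate check.

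Wider gene lists of granule formation were counted in the same way, and some of them include genes of the 7. The primary granule list of 11 genes includes Mpo, Elane, Prtn3 and Ctsg, and 10 of it were tested. In replicates 3 and 4, 4 were higher and 1 lower in shCxxc5, beside 20.0% of all genes called, with a median log2 fold change of 0.02. Gusb, the lysosomal and granule enzyme beta-glucuronidase, was higher by 0.23 (SE 0.04; edgeR, adjusted p = 0.000187), and its pair ratios were 0.24, 0.24 and 0.22 in replicates 2, 3 and 4. Lyz2, lysozyme, was lower at -0.19 (SE 0.05; edgeR, adjusted p = 0.0204), and its pair ratios were -0.21, -0.23 and -0.16. Both genes kept 1 direction in all 3 pairs, and neither passed the interaction, at 0.01 for Gusb (edgeR, adjusted p = 0.950) and -0.02 for Lyz2 (edgeR, adjusted p = 0.903). In the interaction 7 of 10 were higher in replicate 2 and 0 lower, beside 16.8% of all genes higher and 19.0% lower. Those counted as higher include Mpo and Prtn3 in replicates 3 and 4, and Mpo, Elane, Prtn3 and Ctsg in the interaction.

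Of the 10 genes that process, pack or inhibit granule proteins, 3 were higher and 3 lower in replicates 3 and 4 (median 0.02), beside 20.0% of all genes called. In the interaction 9 were higher and 0 lower, beside 16.8% of all genes higher and 19.0% lower. Calr, the chaperone calreticulin that binds the myeloperoxidase precursor, had 2159 CPM in shCxxc5 replicate 2 against 972 CPM in shCtrl replicate 2, and pair ratios of 1.15, 0.24 and 0.22. Pdia3, a disulfide isomerase of the endoplasmic reticulum, had pair ratios of 0.58, 0.20 and 0.24. Both were higher in replicates 3 and 4 (edgeR, adjusted p = 1.30e-06 for Calr and 1.39e-05 for Pdia3). Named after its values were seen, Alas1, the first enzyme of haem synthesis, had pair ratios of 2.13, -0.26 and -0.29. Ctsc, the protease that activates elastase, proteinase 3 and cathepsin G, had 0.31, 0.05 and 0.09, and was likewise named after its values were seen.

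Of the 14 genes for the specific and gelatinase granules of later neutrophils, 2 were higher and 4 lower in replicates 3 and 4 (median -0.04), beside 20.0% of all genes called. For the interaction the counts were 5 higher and 2 lower, beside 16.8% of all genes higher and 19.0% lower, so the share of the list that was lower did not exceed that of all genes. Lcn2, lipocalin 2, was lower in replicates 3 and 4 at -0.36 (edgeR, adjusted p = 0.00323), with pair ratios of 0.71, -0.43 and -0.28. Ltf, lactoferrin, was higher at 0.21 (edgeR, adjusted p = 0.0130), with pair ratios of 0.05, 0.08 and 0.34. The summed level of this list was 626, 674 and 762 CPM in shCxxc5 libraries, against 443, 789 and 740 CPM in shCtrl libraries. The median pair ratio of these later granule genes in replicate 2 was 0.34, beside 1.52 for the primary granule list and -0.04 over all genes tested.

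Among 13 granulocyte-monocyte factors and receptors, 1 was higher and 3 lower in replicates 3 and 4 (median -0.06), beside 20.0% of all genes called. By the interaction 8 were higher and 3 lower, beside 16.8% of all genes higher and 19.0% lower, so only the higher count lies far from the background. Cebpb, a C/EBP factor of emergency granulopoiesis, was lower in replicates 3 and 4 at -0.55 (edgeR, adjusted p = 3.22e-08), with pair ratios of 0.28, -0.45 and -0.66. Csf3r, the G-CSF receptor, was lower at -0.25 (edgeR, adjusted p = 0.00128), with pair ratios of 0.04, -0.28 and -0.22. Named after their values were seen, Cebpa, the factor that commits cells to this lineage, had pair ratios of 1.77, 0.11 and 0.01, Cebpe 2.40, 0.10 and -0.33, and Gfi1 2.23, 0.09 and 0.07. Other members of the list, also named after their values were seen, lay on the other side in replicate 2. Runx1 had pair ratios of -0.73, -0.15 and 0.03, Csf1r, the M-CSF receptor, -0.87, -0.20 and -0.29, Irf8, a factor of the monocyte branch, -0.16, 0.17 and 0.17, and Csf2rb, a shared cytokine receptor chain, -0.13, -0.05 and -0.04. Spi1, which encodes PU.1, had 0.46, 0.03 and 0.03, and Myb 1.28, 0.08 and 0.02. Cebpa had 194 CPM in shCxxc5 replicate 2, against 56.8 CPM in shCtrl replicate 2 and 131 to 142 CPM in the 4 libraries of replicates 3 and 4. Cebpe, which acts at the promyelocyte stage, had 64.2 CPM in shCxxc5 replicate 2, against 12.2 CPM in shCtrl replicate 2 and 5.30 to 8.06 CPM in the other 4.

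The list of other granulocyte-monocyte progenitor genes holds 12. Ms4a3, Plac8 and Gstm1 are counted in it, each of them as higher in the interaction. In replicates 3 and 4, 5 were higher and 2 lower (median 0.10), beside 20.0% of all genes called, and in the interaction 11 were higher and 1 lower, beside 35.8% of all genes called. Igfbp4, which binds insulin-like growth factors, was higher at 0.33 (edgeR, adjusted p = 1.87e-08), with pair ratios of 0.57, 0.31 and 0.33. Emb, the adhesion protein embigin, was higher at 0.30 (edgeR, adjusted p = 3.69e-08), with pair ratios of 0.996, 0.30 and 0.28. Over all 6 libraries no gene of these lists passed edgeR's test.

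**Figure D5:**
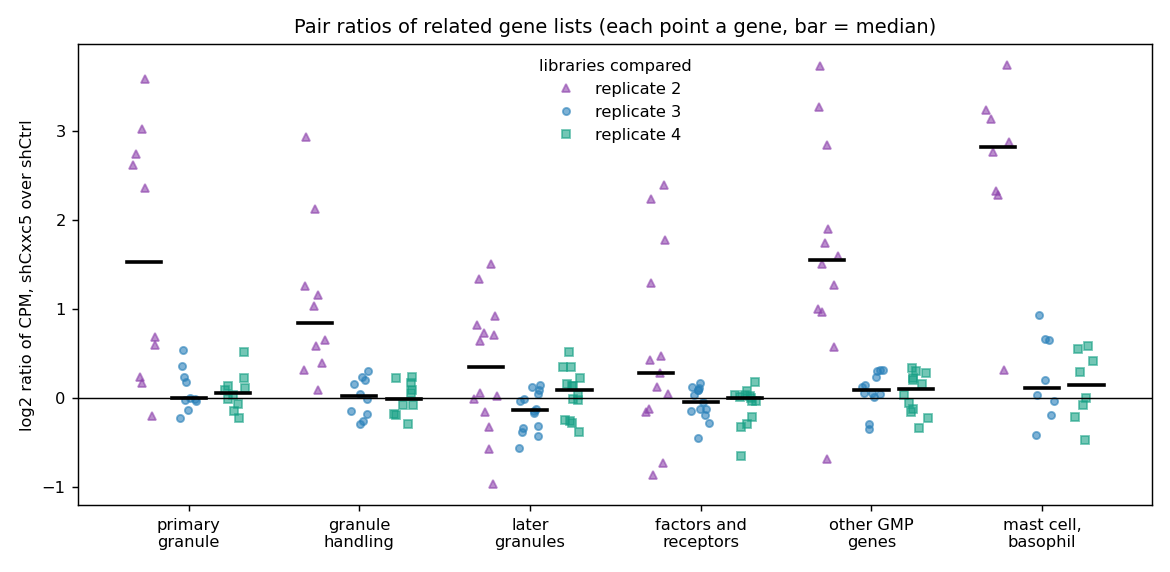
Log2 ratio of CPM, shCxxc5 over shCtrl, for each tested gene of 6 lists within replicate numbers 2, 3 and 4, 1 point per gene, with the median as a bar. In replicate 2 the medians are 1.52 for primary granule genes, 0.84 for granule handling, 0.34 for later granules, 0.28 for factors and receptors, 1.55 for progenitor genes and 2.82 for mast cell and basophil markers, and in replicates 3 and 4 all lie between -0.14 and 0.14.

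Markers of other blood cell types moved with replicate 2 as well. The 8 mast cell and basophil markers summed to 1706, 418 and 399 CPM in shCxxc5 libraries, against 300, 393 and 404 CPM in shCtrl libraries, with none at 0. Their most abundant gene, Cpa3, had 748 CPM in shCxxc5 replicate 2 against 102 CPM in shCtrl replicate 2, and 188 to 217 CPM in the other libraries. All 8 were higher in the interaction, as the 7 granule and progenitor genes were, beside 16.8% of all genes. The 8 megakaryocyte markers summed to 1610, 303 and 295 CPM in shCxxc5 libraries, against 6773, 479 and 477 CPM in shCtrl libraries, led by Itgb3 at 378 CPM in shCxxc5 replicate 2 and 1763 CPM in shCtrl replicate 2. All 7 that were tested were higher in replicate 2 than in replicates 3 and 4, beside 17.7% of all genes, and all 7 were lower in the interaction, beside 19.0% of all genes. In replicates 3 and 4, 5 of those 7 were lower in shCxxc5 (median -0.68), beside 20.0% of all genes called in either direction. Erythroid markers summed to 1043, 538 and 512 CPM in shCxxc5 libraries, against 545, 433 and 453 CPM in shCtrl libraries, with Hba-a1 at 0 in 3 of the replicate 3 and 4 libraries and Tfrc the most abundant. Stem cell markers summed to 355, 244 and 245 CPM in shCxxc5 libraries, against 654, 245 and 239 CPM in shCtrl libraries, led by Meis1. Lymphoid markers, led by Flt3, summed to 171 CPM in shCxxc5 replicate 2 and 223 CPM in shCtrl replicate 2, and to 335 to 366 CPM elsewhere, with Cd3e at 0 in all 6 libraries. Monocyte and dendritic cell markers, led by Ccr2, summed to 233 CPM in shCxxc5 replicate 2 and 241 CPM in shCtrl replicate 2, and to 294 to 310 CPM elsewhere, with Cd209a at 0 in all replicate 3 and 4 libraries. The part of any of these cell types in the values of the 7 genes was not tested.

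The genes whose profile was most like that of Mpo were searched among 859 genes of sufficient level and spread, by Pearson's r of log2 CPM over the 6 libraries. They were Cyp11a1 (r = 0.998), B4galt6 (0.995), Slc22a3 (0.994), Tfec (0.991) and Anxa3 (0.990). For Gstm1 they were Cebpd (r = 0.989), Tph1 (0.983), Trem3 (0.981), Il1rl1 (0.978) and Dio2 (0.978). Among the 7, Ctsg was the most like Mpo (r = 0.987), and Plac8 the least (r = -0.25). These values describe 6 libraries in which shCxxc5 replicate 2 stands apart, so they rest largely on that library.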

How the data were processed

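RNA was sequenced from 20000 to 50000 sorted cells per library with a stranded mRNA kit, per the labels' protocols, which name both single-read and paired-end runs. The authors deposited raw counts per gene; STAR 2.5.2b (alignment to GRCm38) and featureCounts 1.5.1 made them from the reads, per the submitters' processing notes. The sources used here give neither the strand setting nor the annotation release. Symbols came from GENCODE M21 (49326 of 49671 identifiers matched). Counts were filtered with filterByExpr, TMM-scaled and tested with the robust quasi-likelihood test of edgeR 4.0.16 (R 4.3.3), adjusted by Benjamini-Hochberg over all genes at 0.05 and checked on simulated data; each standard error is the absolute log2 fold change over the root of its F statistic. DESeq2 1.42.0, limma-voom (limma 3.58.1), other scaling and filters, a replicate block and leaving out libraries were alternatives. Deviations from group means correlated at 0.670, 0.554 and 0.489 between libraries numbered 2, 3 and 4, and at 0.475 and 0.489 between replicates 3 and 4 of opposite groups. The numbers were treated as pairing the samples only in the ratios within a replicate number and in the replicate block. The main tests over all libraries and over replicates 3 and 4 had the group alone. The tests of replicate 2 and of the interaction added a term for replicate 2. The correlations above separate replicate 2. Among replicates 3 and 4, that of 3 with 3 was the highest (0.554), while that of 4 with 4 (0.489) was level with the higher value across numbers (0.489). They do not settle whether the numbers 3 and 4 mark pairs. Replicates 3 and 4 differed beyond counting noise (chi-square per degree of freedom 2.31 in shCxxc5 and 2.36 in shCtrl) and were kept as separate replicates. Named genes were the 7, Cxxc5, the sort markers, from each related list the 2 of smallest unadjusted p in replicates 3 and 4, the most abundant marker of each other cell type, and the 5 most like Mpo and Gstm1 (average log2 CPM of at least 3, SD of at least 0.5). The 7 genes and the 12 gene lists were chosen with earlier results of these data known.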

Additional observations from a re-analysis of the deposited data

Results flagged for a closer look

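For all 7 genes the log2 ratio of shCxxc5 over shCtrl differed between replicate 2 and replicates 3 and 4, by edgeR's test of the difference itself, adjusted over 14637 genes. The difference was 3.69 for Ctsg, 3.00 for Ms4a3, 2.86 for Mpo, 2.73 for Elane, 2.10 for Prtn3, 1.57 for Gstm1 and 1.47 for Plac8, with the replicate 2 ratio the higher each time. The test estimates its spread from replicates 3 and 4 alone, since replicate 2 has 1 library in each group. The same difference passed for 35.8% of all genes tested. In both replicate 2 libraries Ly6a, the gene of the sort marker Sca-1, was low beside the rest, with a log2 fold change of -4.25 for replicate 2 over replicates 3 and 4 (edgeR, adjusted p = 5.22e-06). The targeted gene differed too: the difference of log2 ratios was -1.87 for Cxxc5, with the knockdown deeper in replicate 2. The part of either in the 7 differences was not tested.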

How the results depend on the processing

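The 7 differences of effect between replicate 2 and replicates 3 and 4 passed under every alternative run. DESeq2 called 2390 genes there, against 5235 by edgeR, 1353 in replicates 3 and 4, against 2833 by edgeR, and 19 over all libraries, against 0 by edgeR. Leaving out 1 library gave 1507 to 2043 genes called in replicates 3 and 4. For replicate 2 over replicates 3 and 4 it gave 3183 to 8816 genes, against 5330, and 2 to 7 of the 7, against 2. With no filter on low counts that comparison called 0 of the 7. The replicate block called 0 of the 7 and 0 genes over all libraries, and 5 of the 7 and 3300 genes in replicates 3 and 4, the same number of the 7 as without the block, so it changed no call among them. Signs turned where values were near 0 or where 1 replicate 2 library was left out. Over all libraries, leaving out 1 library gave Elane -0.82 to 3.01, Plac8 -0.11 to 0.77 and Gstm1 -0.14 to 0.48 (log2). In replicates 3 and 4 Elane stood at -0.022 with library totals alone and -0.026 to 0.045 when 1 library was left out. For replicate 2 over replicates 3 and 4 Prtn3 stood at 0.035 with library totals alone, and leaving out 1 library gave Prtn3 -1.22 to 0.88, Ctsg -0.50 to 3.20, Ms4a3 -0.59 to 2.41, Gstm1 -0.54 to 1.03 and Cxxc5 -1.39 to 0.48. Among the ratios of single genes, 12 moved beyond their interval with library totals alone and 3 with RLE scaling, and none of these changed sign. That interval covers counting error for shCxxc5 over shCtrl. For replicate 2 over replicates 3 and 4 it runs between the ratios to replicate 3 alone and to replicate 4 alone. Replicate 2 has 1 library per group, so no ratio within it has a replicate error, and at 262 to 390 counts Elane is the least precise of the 7 in replicates 3 and 4.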
